A study of Physcomitrium patens with 12 samples.

Results

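Mature archegonia of the PpPINC mutant line pinC#29 of the moss Physcomitrium patens were compared with mature archegonia of wild type. The comparison used 6 of the 12 libraries of the series, 3 of the mutant and 3 of wild type, chosen by their labels; the other 6 hold antheridia. Both genotypes are of the strain Gransden, were collected at day 18 of sporophyte induction, and gave 8 pooled archegonia per library. Collection took place on 3 occasions, but which libraries belong to the same occasion is not given. All mutant libraries come from 1 line, and the labels do not describe its mutant allele, so the mutation and other differences of the line cannot be told apart.

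An archegonium is the female organ of a moss, a flask of sterile cells around a single egg. Its neck opens at maturity so that sperm from the antheridia, the male organs, can swim to the egg. PIN proteins are membrane carriers through which plant cells release the hormone auxin, and in mosses auxin acts in the growth of gametangia as well as of leaves and filaments. The deposited files do not pair gene identifiers with names, and 0 of the 32926 identifiers matched the RefSeq table used here, so genes are given by identifier with no function and no sequence.

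Levels are given as CPM, the usual scaling of counts by library total, with the total adjusted by TMM, a scaling that lines up most genes between libraries. Total counts were between 19038033 and 30939475. Because these are pooled organs, fewer cells of a type and less RNA per cell cannot be told apart. Before the genes are described, 2 libraries need to be named, since each stood apart from the other 5.

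Mutant archegonia 3 was the deepest library, with 30939475 counts, yet it held the fewest genes. It had 19803 genes with at least 1 count, against 24240 and 24802 in mutant archegonia 1 and 2 and 24357, 23991 and 24618 in wild type archegonia 1, 2 and 3. After thinning every library to 19038033 counts it had 19658 genes, against 23711 to 24512 in the others. With at least 10 counts required the gap was smaller, at 18816 against 20485 to 21444 genes. Group means were 22948 ± 2738 genes in the mutant and 24322 ± 315 in wild type (SD, n = 3), an exact permutation p of 0.8 (two-sided; 3 against 3 cannot go below 0.1). Without mutant archegonia 3 the mutant mean was 199 genes above that of wild type.

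The genes missing from mutant archegonia 3 were mostly, but not always, low. Of 17777 genes with at least 1 CPM in each of the other 5 libraries, 639 (3.59%) had no count in it. The share was 23.3% where the other 5 libraries averaged under 3 CPM, 12.5% from 3 to 10 CPM, 1.74% from 10 to 30 CPM, 0.309% from 30 to 100 CPM and 0.0979% from 100 CPM up. When each other library was left out of such a comparison in its turn, wild type archegonia 3 lacked 2 genes and the remaining libraries lacked 0. The same 639 genes had no count more often than all 17777 in each antheridium library, for example in 35.5% against 9.31% of cases in mutant antheridia 2 and 1.72% against 0.231% in wild type antheridia 2. Most of the 639 averaged under 10 CPM in the other 5 archegonium libraries, which most of the 17777 did not. This comparison was not matched for level, so it cannot show a trait beyond low level.

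**Figure D1:**
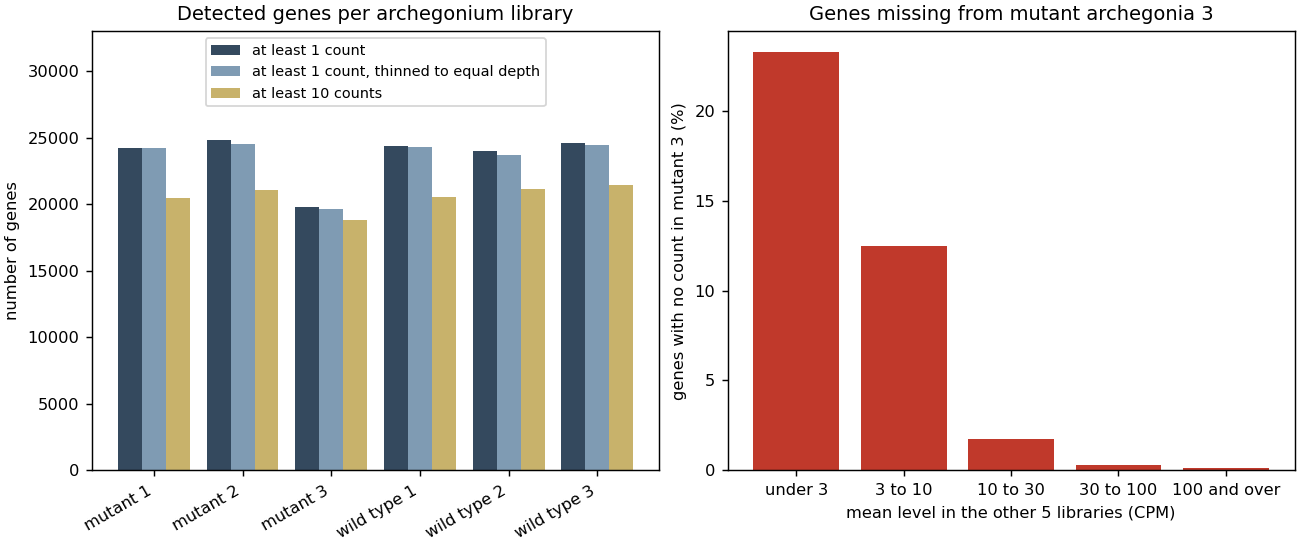
Left, bars give the number of genes in each archegonium library with at least 1 count, with at least 1 count after thinning to 19038033 counts, and with at least 10 counts. Right, bars give the percent of genes without a count in mutant archegonia 3 by their mean level in the other 5 libraries, falling from 23.3% under 3 CPM to 0.0979% at 100 CPM and over.

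Wild type archegonia 3 stood apart in another way, by a set of genes that were high in it alone. In this library 17 genes reached at least 10 CPM and at least 10 times the level of the next library, 2821 CPM in sum. The numbers were 2, 5 and 7 in mutant archegonia 1, 2 and 3 and 0 in wild type archegonia 1 and 2. The genes below were chosen after their values were seen, as the 2 highest of the 17. Pp3c16_19400 stood at 1525 CPM in wild type archegonia 3, at 14.0 and 6.58 CPM in wild type archegonia 1 and 2, and at 5.95, 38.9 and 0 CPM in mutant archegonia 1, 2 and 3. Pp3c2_4510 stood at 349.7 CPM there, against 6.70 and 4.14 CPM in the other wild type libraries and 1.15, 9.35 and 0 CPM in the mutant.

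Both are abundant in antheridia. On a scale set over all 12 libraries Pp3c16_19400 averaged 6289 CPM and Pp3c2_4510 averaged 2653 CPM in wild type antheridia, and 13 of the 17 genes had a higher mean in wild type antheridia than in wild type archegonia 3. To follow such genes in all libraries, 105 genes were taken with at least 100 CPM in wild type antheridia and a median over the 6 archegonium libraries of at most 1% of that level. Their summed level was 11.3% of that of wild type antheridia in wild type archegonia 3 and 2.36% in mutant archegonia 2. In mutant archegonia 1 and 3 and wild type archegonia 1 and 2 it was 0.286%, 0.147%, 0.497% and 0.517%. By single genes the median was 2.62% in wild type archegonia 3 and 0.738% in mutant archegonia 2. In mutant archegonia 3 that median was 0%, and 79 of the 105 genes had no count there. Another list of 51 genes, whose mean over both genotypes of archegonia was at most 1% of that of wild type antheridia, stood at 0.461% in wild type archegonia 3 and between 0.110% and 0.315% in the rest. That limit leaves out genes high in a single archegonium library, such as Pp3c16_19400, so the choice itself keeps these values low. The part of these transcripts in the differences between genotypes was not tested. Values without 1 or both of the 2 libraries are given below for the counts of genes and for some of the named genes.

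Neither of the leading principal components separated the genotypes, but the third did. The first component of log2 CPM held 59.2% of the variance and set mutant archegonia 3 against the other 5. The second held 17.4% and put mutant archegonia 2 beside wild type archegonia 3, away from wild type archegonia 1 and 2. On the third, with 9.81% of the variance, the 3 mutant libraries (37.2, 37.8 and 4.96) lay above the 3 wild type libraries (-11.2, -15.9 and -53.0). Over genes with at least 10 CPM, the median absolute difference between 2 libraries was 0.269 on the log2 scale for mutant archegonia 1 and 2, and 0.314 to 0.422 among wild type libraries. The closest pair was of mixed genotype, mutant archegonia 1 and wild type archegonia 3, at 0.256. Pairs with mutant archegonia 3 differed by 0.620 to 0.865. Counts of replicates differed by far more than sampling noise, the chi-square over its degrees of freedom being 102 or more, so no library was counted as a copy of another.

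**Figure D2:**
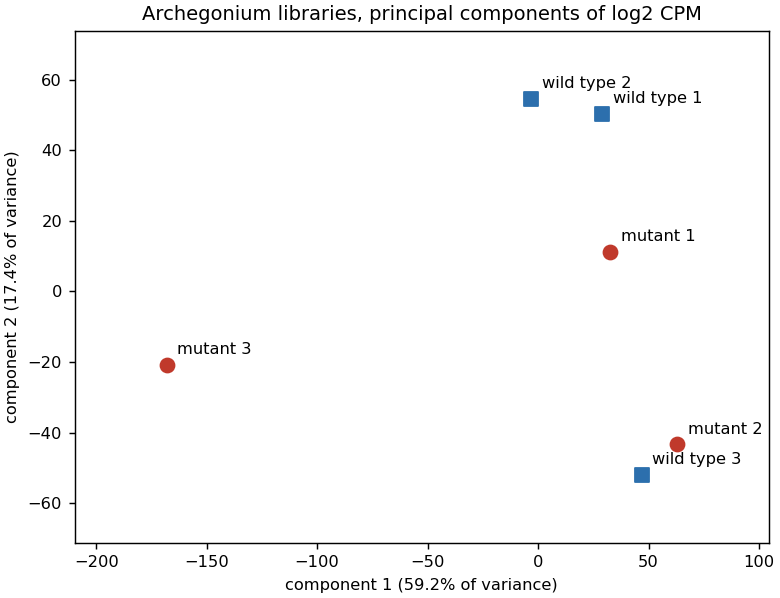
Each point is an archegonium library placed by its first and second principal component of log2 CPM, which hold 59.2% and 17.4% of the variance; circles are mutant and squares wild type. Mutant archegonia 3 lies alone on the left, and mutant archegonia 2 lies beside wild type archegonia 3.

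The candidate for the targeted gene is Pp3c10_24880, which earlier work on these data took from memory of the literature as the locus of PpPINC and which neither the files nor the reference name. Its counts were 3, 2 and 0 in mutant archegonia 1, 2 and 3 and 94, 38 and 56 in the wild type libraries. In CPM these are 0.150, 0.0831 and 0 against 4.47, 1.24 and 2.23. Every mutant library was under every wild type library. In antheridia the groups overlapped, with 66, 0 and 0 counts in mutant antheridia 1, 2 and 3 (2.93, 0 and 0 CPM on the scale of all 12 libraries) and 66, 39 and 165 counts in wild type antheridia (2.92, 1.51 and 6.68 CPM). Mutant antheridia 1 was thus within the wild type range. In archegonia the ratio of the summed levels was 36.3, with an exact 95% counting interval of 15.3 to 113, and the fitted log2 fold change was -5.15 ± 1.07 in edgeR (SE, adjusted p = 0.995). Leaving out mutant archegonia 1 gave -5.96, leaving out mutant archegonia 3 gave -4.41 and leaving out wild type archegonia 1 gave -4.56. DESeq2 gave Pp3c10_24880 a log2 fold change of -5.13 but no adjusted p, so it could not be among the genes that DESeq2 called. The next identifier in numbering, Pp3c10_24900, had even levels, with 68.1, 65.7 and 72.1 CPM in the mutant and 68.6, 54.6 and 65.6 CPM in wild type.

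Across all genes, the question was which transcripts differ between archegonia of the mutant line and of wild type. From the 6 libraries alone edgeR's quasi-likelihood test called 0 of 20974 genes (0%) at an adjusted p under 0.05. An unadjusted p under 0.05 was found for 554 genes (2.64%), 305 (1.45%) with a positive and 249 (1.19%) with a negative log2 fold change. The median log2 fold change was 0.00 over all genes tested, and 1045 genes had a fitted change of at least 2-fold up and 1301 of at least 2-fold down. Such changes were much more frequent among low genes, at 36.1% of genes under 1 CPM, 22.7% from 1 to 10 CPM, 4.15% from 10 to 100 CPM and 5.99% from 100 CPM up. By contrast the share with an unadjusted p under 0.05 was 2.55%, 2.43%, 2.51% and 3.99% in these classes.

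The count of genes with an unadjusted p under 0.05 depended on single libraries. Without mutant archegonia 3 it was 1602, 1130 of them with a positive change, and 389 of these genes were among the 554. Leaving out wild type archegonia 1 gave 209 and leaving out wild type archegonia 2 gave 355. Without both libraries that stand apart, mutant archegonia 3 and wild type archegonia 3, it was 2813. Only 1 gene, Pp3c6_26100, was called at an adjusted p under 0.05 in either fit without mutant archegonia 3. DESeq2 called 20 of 18742 genes (0.107%) in the same 6 libraries, 15 higher and 5 lower in the mutant, limma-voom called 0 genes (0%), and limma-voom with quality weights and the legacy fit of edgeR called 1 gene each (0.00477%). The authors' deposited table called 12 of 18049 genes (0.0665%), 8 higher and 4 lower, and DESeq2 here called all 12.

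In 1172 genes (5.59%) every mutant library was under every wild type library, and in 687 genes (3.28%) every mutant library was above, 8.86% in all. Of the 1172 genes 198 (16.9%) had no count in mutant archegonia 3, against 9.93% of all genes tested; a gene without a count there already meets part of the condition. With mutant archegonia 1 and 2 only, 3135 genes (14.9%) were lower and 2449 (11.7%) higher. Fewer libraries have to line up there, and how far that accounts for the larger shares was not tested.

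**Figure D3:**
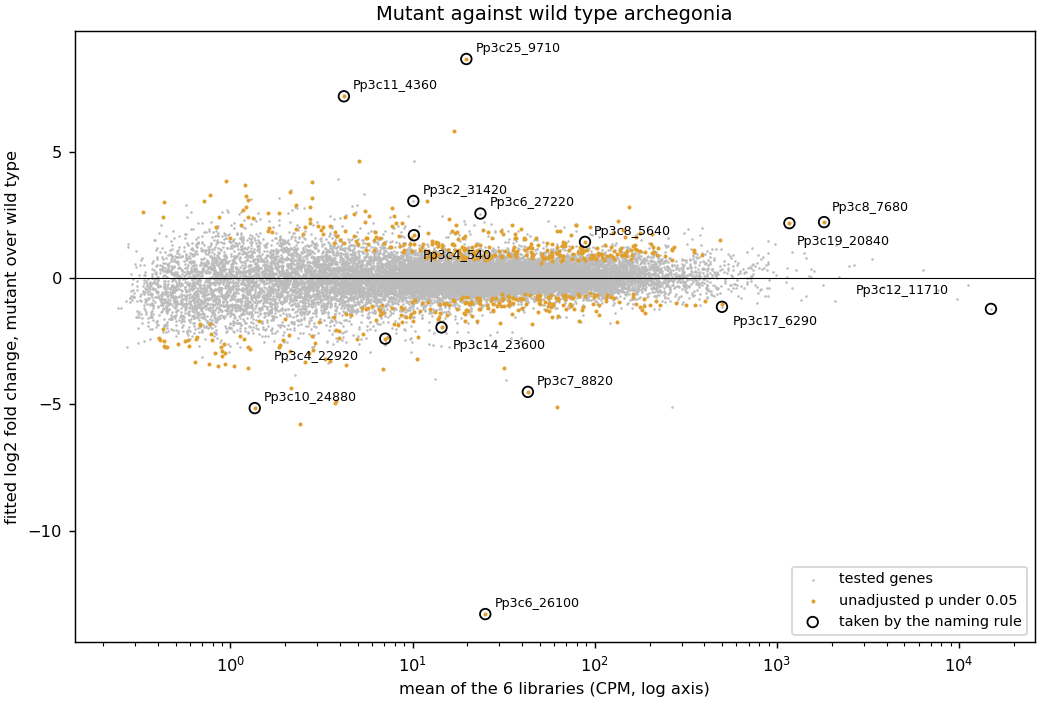
Each point is a tested gene, with its mean over the 6 libraries in CPM on a log axis and its fitted log2 fold change, mutant over wild type, on the vertical axis. Orange points are the 554 genes with an unadjusted p under 0.05. Circles mark the 15 named genes, those taken by the naming rule and the candidate Pp3c10_24880. The fitted value of Pp3c6_26100 depends on a prior count because its mutant libraries had no count.

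Pp3c6_26100 was the gene with the smallest p, and the difference was one of presence and absence. Its level was 47.0, 51.5 and 52.0 CPM in wild type archegonia 1, 2 and 3, from 989, 1581 and 1305 counts, and all 3 mutant libraries had 0 counts. Wild type averaged 50.2 ± 2.77 CPM (SD, n = 3), and with 3 counts over the whole mutant group taken as the floor, the mutant was at least 1246-fold lower. The edgeR adjusted p was 0.0530 with all 6 libraries, 0.00869 without mutant archegonia 3 and 0.0479 without mutant archegonia 2. It was between 0.156 and 0.998 without any 1 of the other 4 libraries. DESeq2 called Pp3c6_26100 at an adjusted p of 3.16e-20, and the authors' deposited DESeq2 table calls it at 1.53e-66. With limma-voom the adjusted p was 0.467. In mutant antheridia 1, 2 and 3 the gene was at 0, 4.80 and 0.0294 CPM and in wild type antheridia at 54.5, 40.3 and 27.5 CPM on the scale of all 12 libraries, so the groups did not overlap there either. The antheridium difference did not pass (edgeR adjusted p = 0.958). No other gene had no count in 1 genotype and at least 1 CPM in every library of the other. The identifier before it in numbering, Pp3c6_26080, also had no count in the mutant but stood at only 0.0475, 1.83 and 0.438 CPM in wild type and was not tested. The identifier after it, Pp3c6_26190, was at 0.800, 3.53 and 0 CPM in the mutant and 1.47, 3.68 and 1.47 CPM in wild type, which overlap.

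Pp3c7_8820 was the other gene taken as lower by smallest p. Its level was 53.9, 35.3 and 157.8 CPM in wild type archegonia and 3.60, 5.36 and 1.93 CPM in mutant archegonia. The groups did not overlap, but wild type archegonia 3, the library with the most antheridium transcripts, was well above the other wild type libraries. Mutant archegonia 2, with the next highest summed level of the 105 antheridium genes (2.36%), was at 5.36 CPM. Wild type archegonia 1 and 2, with 0.497% and 0.517%, were at 53.9 and 35.3 CPM. The part of such transcripts in the difference of Pp3c7_8820 was not tested. The log2 fold change was -4.51 ± 0.70 in edgeR (SE, adjusted p = 0.995), -3.58 without wild type archegonia 3 and -3.25 without both libraries that stand apart. DESeq2 called Pp3c7_8820 at an adjusted p of 1.14e-07, and it is also called in the authors' deposited table, at 2.30e-06. This gene is itself abundant in antheridia, where it was at 669, 746 and 877 CPM in wild type and 966, 2086 and 1815 CPM in the mutant on the scale of all 12 libraries. The genotype difference of the 2 organs therefore had opposite signs, but the interaction over 12 libraries did not pass (edgeR adjusted p = 0.610).

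Pp3c25_9710 had the smallest p among genes with higher levels in the mutant. It was at 14.8, 3.20 and 100.2 CPM in mutant archegonia 1, 2 and 3, from 296, 77 and 3008 counts, and at 0.190, 0.0326 and 0.0797 CPM in wild type, from 4, 1 and 2 counts. All mutant libraries were above all wild type libraries, with a wide spread among them. The log2 fold change was 8.67 ± 1.39 in edgeR (SE, adjusted p = 0.440), and it was 6.57 without mutant archegonia 3, which carried most of the reads. Without mutant archegonia 2 the gene passed, at an edgeR adjusted p of 0.0438. With all 6 libraries DESeq2 called Pp3c25_9710 at an adjusted p of 2.10e-09, and the authors' deposited DESeq2 table calls it at 0.0188. With limma-voom the adjusted p was 0.972. None of the 6 antheridium libraries had a count for it.

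Pp3c8_5640 had a smaller but far tighter difference. The mutant libraries were at 138, 122 and 127 CPM and those of wild type at 49.9, 43.5 and 50.4 CPM. Group means were 129 ± 8.21 and 47.9 ± 3.83 CPM (SD, n = 3), a log2 fold change of 1.43 ± 0.26 in edgeR (SE, adjusted p = 0.995), with values from 1.36 to 1.51 when single libraries were left out. DESeq2 called Pp3c8_5640 at an adjusted p of 2.27e-05, and the authors' deposited DESeq2 table calls it at 0.000342. With limma-voom the adjusted p was 0.972. In antheridia the mutant libraries were at 129, 40.8 and 51.3 CPM and those of wild type at 63.0, 52.7 and 43.6 CPM, which overlap.

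Of the genes called in the authors' deposited table and not yet described, the 2 higher and the 2 lower ones with the smallest adjusted p in their own direction follow. Pp3c11_4360 was at 7.70, 10.02 and 7.33 CPM in the mutant and at 0, 0 and 0.159 CPM in wild type, the latter from 4 counts in wild type archegonia 3. The ratio of the summed levels was 159.4 with an exact 95% counting interval of 62.0 to 587, and the edgeR adjusted p was 0.408. The fitted log2 fold change was 7.19 ± 1.02 (SE), and 10.74 without wild type archegonia 3, which leaves wild type without a count and the value dependent on the prior count. The authors' deposited table gave Pp3c11_4360 a change of 3.29 on the log2 scale, adjusted p 5.88e-11. For all 12 genes called in that table its changes were smaller in size than the edgeR ones here, for example 1.84 against 8.67 for Pp3c25_9710. The 2 sets of changes are thus not on a like scale, and the reason was not tested. The mutant libraries were even and the wild type libraries at or near 0. In antheridia the mutant libraries were at 1.46, 6.26 and 2.64 CPM and wild type had no count, again without overlap (edgeR adjusted p = 0.958).

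Pp3c4_540 was at 15.6, 15.8 and 15.3 CPM in mutant archegonia and 4.13, 4.86 and 5.42 CPM in wild type archegonia. The libraries of each group lay close together, with a log2 fold change of 1.69 ± 0.36 in edgeR (SE, adjusted p = 0.995). The authors' deposited table gave Pp3c4_540 a change of 1.496 on the log2 scale, adjusted p 0.00111. Its neighbours in numbering, Pp3c4_510 and Pp3c4_570, had levels that overlapped between the groups.

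Pp3c14_23600 stood at 5.0, 6.65 and 6.06 CPM in the mutant and 20.1, 27.3 and 21.4 CPM in wild type. Its log2 fold change was -1.96 ± 0.34 in edgeR (SE, adjusted p = 0.995), and between -2.04 and -1.81 with single libraries left out. In antheridia the same gene was at 6.43, 0 and 2.59 CPM in the mutant and 26.2, 14.7 and 12.4 CPM in wild type, so the mutant libraries were the lower ones in both organs. The antheridium difference did not pass either (edgeR adjusted p = 0.958). Pp3c4_22920 was at 1.55, 3.03 and 2.17 CPM in the mutant and 7.98, 18.4 and 9.44 CPM in wild type, a log2 fold change of -2.40 ± 0.54 in edgeR (SE, adjusted p = 0.995). It varied widely in antheridia, where the groups overlapped.

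All 12 genes called in the authors' deposited table had groups that did not overlap, and all were among the 27 genes with the smallest edgeR p. The same held for the 20 genes called by DESeq2 here, whose median absolute log2 fold change was 2.05. Over all genes tested, 8.86% had groups that did not overlap. All of these tests use the same 6 libraries, so genes called by one tend to stand out in the others, and the counts are no separate support. In antheridia, which share no library with this comparison, 19 of the 20 were tested and 11 had the same sign. The share with the same sign over all genes is not given here, so this count is not read as a result. The groups did not overlap in the same direction for 4 of them and in the opposite direction for 1; over all genes tested in both organs, 4.77% were higher and 6.08% lower in mutant antheridia without overlap.

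**Figure D4:**
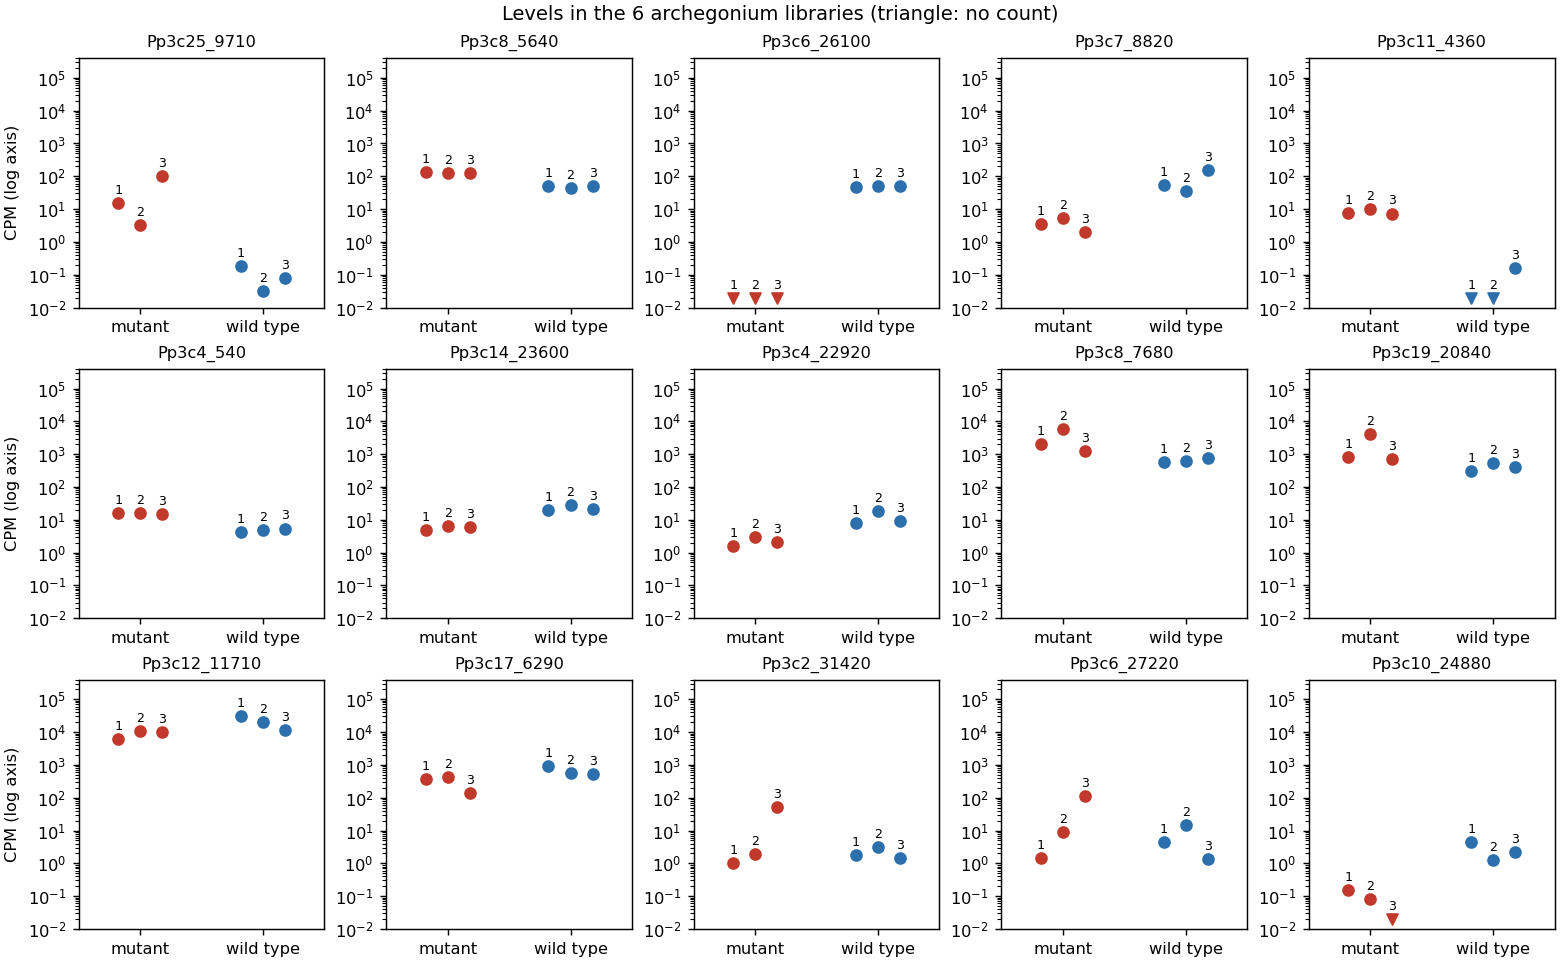
Each panel shows 1 gene, with CPM on a log axis for the 3 mutant (red) and 3 wild type (blue) archegonium libraries, numbered by replicate; triangles at the bottom mark libraries with no count. Groups do not overlap except in Pp3c2_31420 and Pp3c6_27220, where mutant archegonia 3 alone is high.

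Among 651 abundant genes, with a mean of at least 200 CPM over the 6 libraries, 33 were higher and 41 lower in the mutant with no overlap between the groups, where the shares over all genes tested were 3.28% and 5.59%. Pp3c8_7680 was at 2081, 5665 and 1214 CPM in the mutant and 594, 599.7 and 741 CPM in wild type, a log2 fold change of 2.21 ± 0.65 in edgeR (SE, adjusted p = 0.995). Pp3c19_20840 was at 845, 4212 and 695 CPM in the mutant and 307, 553 and 418 CPM in wild type, a log2 fold change of 2.17 ± 0.77 in edgeR (SE, adjusted p = 0.995). Mutant archegonia 2 had the top level of both, and without it the log2 fold changes were 1.38 and 0.89.

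On the lower side, Pp3c12_11710 was the most abundant of the named genes. It was at 6225, 10592 and 10100 CPM in the mutant and at 30581, 20632 and 11706 CPM in wild type, so the lowest wild type library lay close above the highest mutant one. The log2 fold change was -1.23 ± 0.71 in edgeR (SE, adjusted p = 0.995). It was one of 10 genes taken after earlier results were known as archegonium genes, with at least 100 CPM over the 6 archegonium libraries and at most 10% of that in antheridia. Their summed level was 15150, 20583 and 15888 CPM in the mutant and 52430, 28773 and 25612 CPM in wild type on the scale of all 12 libraries. Of the 10 genes, 3 were lower in every mutant library (5.59% of all genes tested) and 0 higher in every one (3.28% of all), and the median log2 fold change was -0.68, against 0.00 over all genes tested. In antheridia Pp3c12_11710 was at 10.3, 5.41 and 6.76 CPM in the mutant and 3144, 330.3 and 1689 CPM in wild type, the same direction with no overlap (edgeR adjusted p = 0.705). The 10 genes summed to 110, 36.5 and 54.1 CPM in mutant antheridia and 4195, 463 and 2085 CPM in wild type antheridia. Pp3c12_11710 is part of the sums for both organs and made up most of that in wild type antheridia. The sums therefore cannot show whether the other genes of the list moved too. Wild type antheridia alone, with a mean of 1721 CPM for Pp3c12_11710, lay above the limit of 10%. The low mutant antheridia thus let this gene onto the list, so its antheridium values and these sums are no separate support. The part of the 10 genes in the genotype difference was not tested.

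Pp3c17_6290 was at 360.5, 432.8 and 142 CPM in the mutant and 952, 582 and 529.6 CPM in wild type. The log2 fold change was -1.14 ± 0.50 in edgeR (SE, adjusted p = 0.995), or -0.74 without mutant archegonia 3. In antheridia it was at 233.6, 1316 and 485 CPM in the mutant and 376, 338 and 454 CPM in wild type, where the groups overlapped.

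Some differences of group means rested on mutant archegonia 3. For 8 genes with at least 10 CPM in the higher group, the group means differed at least 4-fold with this library and less than 2-fold without it; such a rule can only take genes with the higher mean in the mutant. Pp3c2_31420 was at 51.2 CPM in mutant archegonia 3 but at 1.00 and 1.95 CPM in the other mutant libraries and 1.85, 3.23 and 1.43 CPM in wild type. Its log2 fold change was 3.05 ± 1.37 in edgeR (SE, adjusted p = 0.995) with this library and -0.50 without it. Pp3c6_27220 was at 110.3 CPM there, at 1.5 and 9.27 CPM in the other mutant libraries and at 4.37, 14.8 and 1.39 CPM in wild type, with a log2 fold change of 2.55 ± 1.40 in edgeR (SE, adjusted p = 0.995) and -0.28 without it. Neither gene separated the groups.

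**Figure D5:**
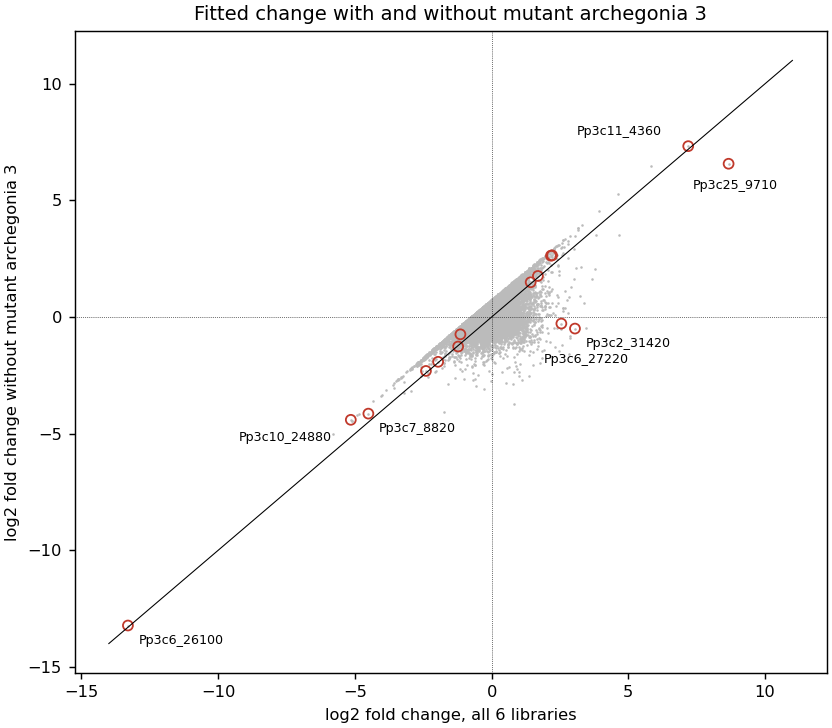
Each point is a gene tested in both fits, with its log2 fold change from all 6 libraries on the horizontal axis and from 5 libraries without mutant archegonia 3 on the vertical axis. The line marks equal values, and circles mark genes taken by the naming rule and the candidate Pp3c10_24880. Pp3c2_31420 and Pp3c6_27220 drop from 3.05 and 2.55 to below 0, while Pp3c6_26100 and Pp3c11_4360 stay near the line.

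The same genes were mostly not set apart in the male organ. Of the 687 genes higher in every mutant archegonium library, 661 were tested in antheridia, and 30 of these (4.54%) were also higher in every mutant antheridium library, against 4.77% of all genes tested in both organs. Of the 1172 lower genes, 1087 were tested in antheridia and 77 (7.08%) were lower there too, against 6.08%. Both shares lie near the background.

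Genes with differences were spread over the numbering of the identifiers. The median log2 fold change of the 27 series from Pp3c1 to Pp3c27, each of 304 to 1362 tested genes, was between -0.05 and 0.04. The share of genes lower in every mutant library ran from 2.63% in Pp3c27 to 6.82% in Pp3c8, and that of genes higher in every mutant library from 1.94% in Pp3c16 to 4.6% in Pp3c11. For the 15 named genes, those taken by the naming rule and the candidate Pp3c10_24880, the identifiers directly before and after gave 30 neighbours. Of these, 19 were tested. In 17 of the 19 the groups overlapped, and in the other 2 they did not, where 8.86% of all genes tested did not overlap. The exceptions were Pp3c19_20830, at 112, 105 and 94.5 CPM in the mutant and 29.1, 71.9 and 92.5 CPM in wild type, and Pp3c12_11790, at 44.6, 55.5 and 18.4 CPM in the mutant and 72.4, 66.5 and 63.0 CPM in wild type.

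The share of counts taken by the 100 most abundant genes was 14.1%, 17.5% and 16.4% in mutant archegonia 1, 2 and 3 and 16.9%, 15.1% and 17.9% in wild type. Means were 16.0 ± 1.72% and 16.7 ± 1.40% (SD, n = 3), with an exact permutation p of 0.6 (two-sided).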

How the data were processed

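The authors deposited a table of read counts for 32926 genes in 12 libraries and a table of their own DESeq2 comparison for these 2 groups, which holds mean normalised signal, log2 fold changes, their standard errors and test statistics (read as score columns) and p-values. The submitters' processing notes list HISAT2 2.1.0, cutadapt 2.10, Trim Galore 0.6.6 and DESeq2 2.11.40.6. For the build, the annotation and the counting settings, the sources used here give nothing. Per the labels' protocols, cDNA was made by Smart-seq2, which carries no molecular identifiers and does not mark strand, so overlapping or near-identical genes may share reads. The table has no header: its columns were identified from their values, and its signs matched those here for all 153 tested genes at least 2-fold changed in it.

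The main test was edgeR 4.0.16 (R 4.3.3) on the counts of 6 libraries, with TMM factors, filterByExpr, the robust non-legacy quasi-likelihood fit and Benjamini-Hochberg adjustment; 20974 genes were tested, of 27165 with a count. Standard errors are the absolute log2 fold change over the square root of F. DESeq2 1.42.0 and limma 3.58.1 were alternatives. The tests were also run on simulated counts with the same spread in both groups and no library standing apart. That run does not show how many true changes would be called in these data. Floors (3 counts) and 95% intervals cover counting error only; 3 counts were 0.0978 to 0.150 CPM per library. The titles call replicates biological, and nothing says whether cultures were separate, so the spread behind the p-values may be technical.

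Named genes were at most 2 higher and 2 lower per view: smallest edgeR p (groups not overlapping, at least 10 CPM in the higher group); no count in 1 genotype; lowest adjusted p in that deposited table; abundant (at least 200 CPM) with the largest fitted change; and resting on mutant archegonia 3. The candidate Pp3c10_24880 was named besides these. Members and lists were chosen with earlier results of these data known.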

Additional observations from a re-analysis of the deposited data

How the results depend on the processing

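The number of called genes, 0 in the main test, was 1 without a low-count filter, 20 with DESeq2, 1 with limma-voom and quality weights, 1 with the legacy fit and 1 without both libraries that stand apart, an alternative chosen after seeing the data; with single libraries left out it was 0 to 2. The 554 genes with an unadjusted p under 0.05 became 1967 with limma-voom and quality weights, 257 in a fit over all 12 libraries, 2813 without both libraries that stand apart, and 209 to 1602 with single libraries left out. With a replicate block it was 357 and no gene was called. Deviations of same-numbered libraries correlated at 0.179, -0.424 and -0.211, and those of differently numbered libraries at -0.131 to 0.366. With 3 libraries per group and 2 libraries that stand apart, these values cannot show whether same-numbered libraries belong together. Of 240 values of the 15 named genes under 16 alternatives, 219 kept their direction without being called and 15 were newly called. The 219 include the DESeq2 values of Pp3c2_31420 and Pp3c10_24880, for which DESeq2 gave no adjusted p. Another 6 changed sign, for Pp3c2_31420 (-0.48 with limma-voom and quality weights, -0.72 without both libraries that stand apart, -0.50 to 3.59 with single libraries left out) and Pp3c6_27220 (-0.48, -0.76 and -0.28 to 3.82); the cause was not tested. The difference in detected genes, -1374, was -1337 after thinning, -932 at 10 counts and -2300.5 to 199 with single libraries left out, and that in the share of the 100 most abundant genes, -0.625 percentage points, was 1.09 for 1000 genes and -1.38 to 0.316 with single libraries left out.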
